A study of Caenorhabditis elegans with 10 samples.

Results

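The genes described here are 10 genes of meiotic chromosome structure and recombination in Caenorhabditis elegans, htp-1, htp-3, him-3, rec-8, syp-1, syp-2, syp-3, him-8, spo-11 and msh-5. They were chosen by name, and all 10 were found among the 20222 gene rows of the count tables. RNA was read in whole dauers, the arrested larval stage, of 2 genotypes with 5 libraries each. The chd-7;daf-2 animals carry the chd-7 allele gk290 together with the daf-2 allele e1370 and are also called the double mutant here, and the daf-2 animals carry e1370 alone, so every library comes from animals with a mutated insulin-like receptor. Both genotypes were held at 25°C for 10 days from synchronized eggs. The chd-7 gene encodes a chromatin-remodelling ATPase whose human counterpart is mutated in CHARGE syndrome. The comparison asks how its loss changes the dauer transcriptome.

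In meiosis each chromosome is organised as loops on a protein axis built from cohesin and HORMA-domain proteins. Homologues find their partner, are joined along their length by the synaptonemal complex, and exchange DNA at crossovers that start from programmed double-strand breaks. In C. elegans these proteins are known for their work in the germ line, where mutants missegregate chromosomes, and in dauers the germ line is arrested.

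Of the 10 genes, 7 were lower in chd-7;daf-2 dauers than in daf-2 dauers and none was higher, by edgeR's quasi-likelihood test with Benjamini-Hochberg adjustment over all 12499 tested genes and a threshold of 0.05. Across all tested genes 18.3% were called lower and 17.9% higher. At an unadjusted p under 0.05, 8 of the 10 were lower and none was higher. The shares of all tested genes at that looser threshold are larger than the adjusted ones and are not given here. DESeq2 called 8 of the 10 lower and none higher, where it called 19.7% of all genes in each direction. The median log2 fold change of the 10 genes was -1.31, against -0.03 for all tested genes, and the 10 values ran from -1.96 for htp-1 to -0.30 for him-8. The axis genes htp-1 and htp-3, the cohesin gene rec-8, the synaptonemal complex genes syp-1 and syp-3, the break-forming gene spo-11 and the crossover gene msh-5 fell. The axis gene him-3, the synaptonemal complex gene syp-2 and the pairing gene him-8 did not pass the threshold. All adjusted p values below come from this edgeR fit unless another test is named. In bulk RNA of whole animals, fewer germ cells and less RNA per germ cell cannot be told apart.

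Libraries held between 7331885 and 14997608 reads assigned to genes. The 10 genes had between 13 and 316 reads each in a library, and the values below are CPM, reads of a gene scaled to a common library size after TMM normalisation. A gene without a read could lie as high as 0.196 to 0.393 CPM (3 counts), by counting error only. Nothing in the labels ties the libraries to separate cultures, and the p values then reflect only how these libraries differ, perhaps for technical reasons. Libraries of a genotype were not equally close. A chi-square of the counts of a pair of libraries, over its degrees of freedom, is near 1 under counting error alone. In daf-2 it ran from 3.83 (replicates 4 with 5) to 67.4 (replicates 1 with 4). In the double mutant it was 5.55 (1 with 2), 6.58 (3 with 4) and at most 46.8 (1 with 5). The tests treated all libraries as independent, and if close ones share a culture the p values are too small. The chd-7 transcript itself had 234 to 283 CPM in chd-7;daf-2 libraries and 207 to 263 CPM in daf-2 libraries (log2 fold change 0.21 ± 0.10, adjusted p = 0.137), which is a whole-gene count and checks no deletion inside the gene. Among chd-7;daf-2 libraries, replicate 4 stood apart in germline transcripts, and among daf-2 libraries, replicates 2 and 3 stood apart in yolk and uterine transcripts. Leaving these 3 libraries out was chosen after seeing the data. Without them, 7 of the 10 genes were called lower and none higher, while 13.6% of 12828 tested genes were called lower and 14.5% higher. Without replicate 4 of chd-7;daf-2 alone, 8 were called lower and none higher, against 17% of 12725 tested genes lower and 16.9% higher. With all 10 libraries, the ranges of both genotypes overlapped for each of the 10 genes, whereas 22.7% of all tested genes did not overlap.

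**Figure D1:**
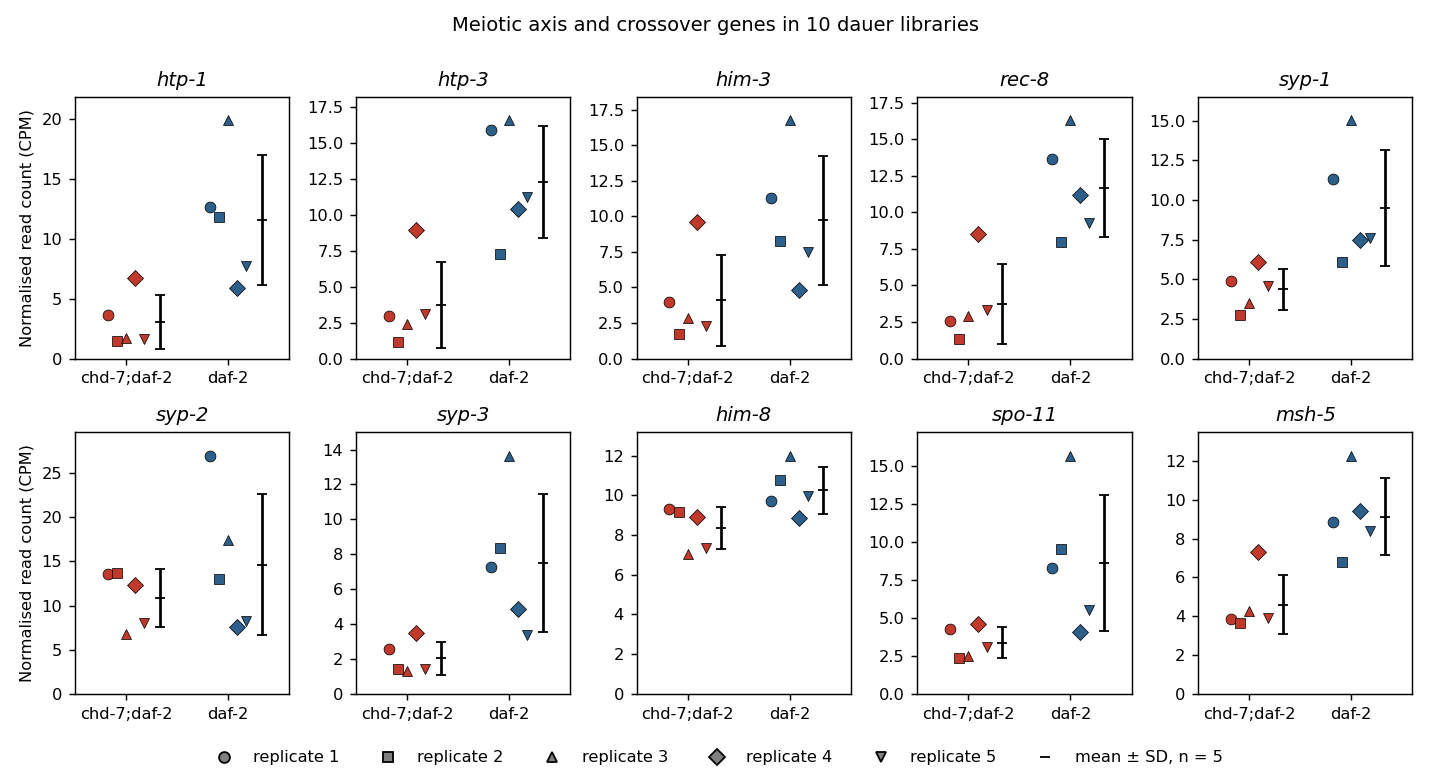
Normalised read counts (CPM, y axes from 0) of the 10 genes, with 1 point for each library, chd-7;daf-2 at left and daf-2 at right in every panel, symbols for the replicate number, and bars for the mean and SD of 5 libraries. The diamond of chd-7;daf-2 replicate 4 is the highest of its genotype in every panel except syp-2 and him-8, and the triangle of daf-2 replicate 3 is the highest of its genotype in every panel except syp-2.

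The axis was described first through its HORMA-domain proteins. The gene htp-1 encodes an axis protein that couples pairing to synapsis and protects cohesion, and lies on chromosome IV from 5390189 to 5391557 (minus strand, WBcel235). It was read at 3.598, 1.45, 1.67, 6.75 and 1.64 CPM in chd-7;daf-2 replicates 1 to 5, against 12.63, 11.8, 19.9, 5.88 and 7.72 CPM in daf-2 replicates 1 to 5. Only replicate 4 of the double mutant reached the daf-2 range, where it exceeded daf-2 replicate 4. The fitted level was 3.89-fold lower in the double mutant (-1.96 ± 0.47 on the log2 scale, SE, adjusted p = 0.00812), within its SE of the fall of syp-3. Reads that align equally well to htp-1 and its close paralog htp-2 may be missing from both or assigned to either, so both values are uncertain. The htp-2 gene itself averaged 2.95 ± 2.06 CPM in chd-7;daf-2 dauers and 9.73 ± 4.53 CPM in daf-2 dauers (SD, n = 5 each), a log2 fold change of -1.74 ± 0.43 (adjusted p = 0.0100).

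The gene htp-3, on chromosome I from 4827072 to 4829791 (plus strand), encodes the HORMA-domain protein on which the other axis proteins are loaded. Its levels were 2.98, 1.18, 2.42, 8.93 and 3.08 CPM in chd-7;daf-2 replicates 1 to 5, against 15.9, 7.26, 16.6, 10.4 and 11.3 CPM in daf-2 replicates 1 to 5. Again replicate 4 was the chd-7;daf-2 library inside the daf-2 range, above daf-2 replicate 2. The log2 fold change was -1.74 ± 0.44 (adjusted p = 0.0111), and without replicate 4 it was -2.33 ± 0.32 (adjusted p = 0.000393).

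The HORMA-domain gene him-3 encodes an axis protein needed for synapsis and for crossovers between homologues, and lies on chromosome IV from 6977508 to 6978765. Its values were 3.95, 1.73, 2.88, 9.59 and 2.29 CPM in chd-7;daf-2 replicates 1 to 5, against 11.3, 8.25, 16.8, 4.84 and 7.46 CPM in daf-2 replicates 1 to 5. Replicate 4 of chd-7;daf-2 exceeded 3 of the daf-2 libraries, and daf-2 replicate 4 was the lowest of its genotype. With a log2 fold change of -1.27 ± 0.46 (95% interval -2.29 to -0.25), him-3 did not pass (adjusted p = 0.0516). It did pass without chd-7;daf-2 replicate 4 (-1.84 ± 0.37, adjusted p = 0.00345), without the 3 libraries (-1.54 ± 0.36, adjusted p = 0.0142), without daf-2 replicate 4, and with DESeq2 and limma-voom.

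The meiotic cohesin gene rec-8 encodes the kleisin subunit that replaces the mitotic kleisin in germ cells and holds sister chromatids together. It lies on chromosome IV from 13349122 to 13353193 (minus strand). Levels were 2.54, 1.36, 2.88, 8.497 and 3.34 CPM in chd-7;daf-2 replicates 1 to 5, against 13.7, 7.95, 16.3, 11.2 and 9.29 CPM in daf-2 replicates 1 to 5. The 4 double mutant libraries other than replicate 4 were all below the lowest daf-2 library. The difference on the log2 scale was -1.67 ± 0.40 (adjusted p = 0.00873), and without replicate 4 it was -2.19 ± 0.29 (adjusted p = 0.000313).

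The synaptonemal complex is formed in C. elegans by SYP proteins that span the gap between homologous axes. The gene syp-1, on chromosome V from 16404274 to 16407701 (plus strand), was read at 4.91, 2.73, 3.53, 6.10 and 4.58 CPM in chd-7;daf-2 replicates 1 to 5, against 11.4, 6.09, 15.01, 7.46 and 7.59 CPM in daf-2 replicates 1 to 5. The genotypes met only where chd-7;daf-2 replicate 4, at 6.10 CPM, was just above daf-2 replicate 2, at 6.09 CPM. The fall was 2.18-fold, with an SE of 0.28 on the log2 scale (adjusted p = 0.0106). In the Ensembl annotation, syp-1 shares 517 of its 3053 exonic bases with F13A7.14 on the same strand, and reads in an overlap may be counted as ambiguous.

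Another component, syp-3, lies on chromosome I from 8663045 to 8664445 (minus strand). Its levels were 2.54, 1.45, 1.30, 3.49 and 1.44 CPM in chd-7;daf-2 replicates 1 to 5, against 7.25, 8.34, 13.6, 4.84 and 3.40 CPM in daf-2 replicates 1 to 5. Replicate 4 of chd-7;daf-2 was just above daf-2 replicate 5, and all other values were separated. It fell by 1.89 ± 0.40 on the log2 scale, with the lowest adjusted p of the 10 genes (0.00414). Of its exonic bases, 61 overlap mrt-1 on the opposite strand.

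The syp-2 gene, also a component of the complex, lies on chromosome V from 5536487 to 5537717. It had 13.6, 13.7, 6.78, 12.31 and 7.99 CPM in chd-7;daf-2 replicates 1 to 5, against 26.97, 13.1, 17.4, 7.60 and 8.25 CPM in daf-2 replicates 1 to 5. High and low libraries occurred in both genotypes, and daf-2 replicate 1 alone exceeded all others by a wide margin. The difference was -0.44 ± 0.35 on the log2 scale, with a 95% interval from -1.19 to 0.32 (adjusted p = 0.346), so a fall as large as that of syp-1 lies within the interval. Without daf-2 replicate 1 the log2 fold change was -0.10.

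Pairing of the X chromosomes uses him-8, which encodes a zinc-finger protein that binds the X pairing centre. The gene lies on chromosome IV from 10561905 to 10563974. It was the steadiest of the 10, with 9.30, 9.18, 7.06, 8.93 and 7.33 CPM in chd-7;daf-2 replicates 1 to 5, against 9.73, 10.8, 11.99, 8.85 and 9.95 CPM in daf-2 replicates 1 to 5. The highest library of a genotype was 1.32 times the lowest in chd-7;daf-2 and 1.36 times in daf-2, whereas for htp-1 these ratios were 4.64 in chd-7;daf-2 and 3.38 in daf-2. In chd-7;daf-2, 3 values lay above the lowest daf-2 value. The difference was -0.30 ± 0.14 on the log2 scale, with a 95% interval from -0.61 to 0.01 (adjusted p = 0.123).

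Recombination starts with spo-11, which encodes the topoisomerase-like enzyme that makes meiotic double-strand breaks, on chromosome IV from 11123133 to 11124862 (minus strand). It was read at 4.30, 2.36, 2.51, 4.58 and 3.08 CPM in chd-7;daf-2 replicates 1 to 5, against 8.28, 9.52, 15.7, 4.08 and 5.50 CPM in daf-2 replicates 1 to 5. Here daf-2 replicate 4 lay below replicates 1 and 4 of the double mutant, and daf-2 replicate 3 was far above the others. The log2 fold change was -1.36 ± 0.35 (adjusted p = 0.0117). Without the 3 libraries that stood apart it was -0.96 ± 0.32 and missed the threshold (adjusted p = 0.0513).

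Crossover formation was represented by msh-5, which encodes a MutS-family protein that acts with HIM-14 (MSH-4) to stabilise crossover intermediates. It lies on chromosome IV from 13155233 to 13164054 and has the longest exonic sequence of the 10 genes, 4216 bases. Its levels were 3.86, 3.64, 4.27, 7.30 and 3.93 CPM in chd-7;daf-2 replicates 1 to 5, against 8.88, 6.77, 12.27, 9.40 and 8.38 CPM in daf-2 replicates 1 to 5. The 4 double mutant libraries other than replicate 4 lay between 3.64 and 4.27 CPM, and replicate 4 was above daf-2 replicate 2. Its log2 fold change was -0.999 ± 0.23 (adjusted p = 0.00661).

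**Figure D2:**
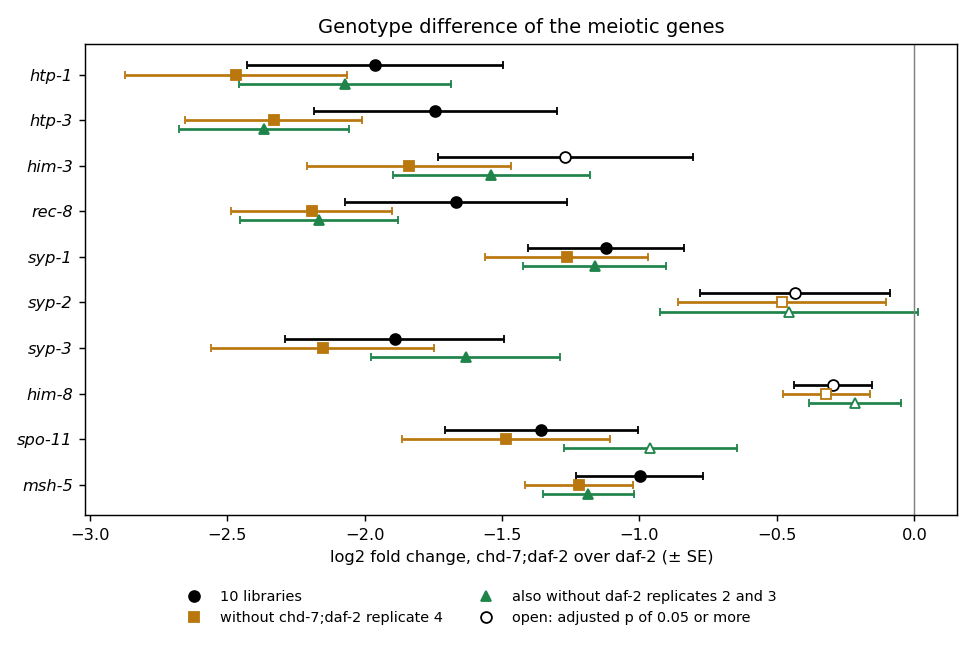
Log2 fold change of each gene, chd-7;daf-2 over daf-2, with its SE, from edgeR fits on all 10 libraries (black), without chd-7;daf-2 replicate 4 (orange) and also without daf-2 replicates 2 and 3 (green), with open symbols for an adjusted p of 0.05 or more. All 30 values lie below 0, and syp-2 and him-8 are open in the 3 fits.

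Leaving out replicate 4 of the double mutant separated the genotypes for 7 of the 10 genes. Those genes (htp-1, htp-3, him-3, rec-8, syp-1, syp-3 and msh-5) had no overlap between the 4 remaining chd-7;daf-2 libraries and the 5 daf-2 libraries, while 14.7% of all tested genes were lower without overlap. Since that library was left out after its values were seen, this count describes the other 9 libraries. The ratio of replicate 4 to the mean of the other 4 chd-7;daf-2 libraries was taken for each gene. It was 3.23 for htp-1, 3.70 for htp-3, 3.53 for him-3 and 3.36 for rec-8, the axis and cohesin genes. It was 1.55 for syp-1, 1.17 for syp-2 and 2.07 for syp-3, and it was 1.09 for him-8, 1.49 for spo-11 and 1.86 for msh-5.

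Whether the genes differed from each other in their response was tested on the log2 ratio of each pair within a library, which removes library scaling. All 45 pairs were compared with exact two-sided permutation tests over the 10 libraries, for which the smallest possible p is 0.00794. None of the 45 passed 0.05 after adjustment over the pairs, where the lowest adjusted value was 0.0714, and 21 had an unadjusted p under 0.05. An adjusted p under 0.05 over 45 pairs needs many pairs at or near the smallest possible p, and 1 pair reached it. The absence of calls therefore does not show that the genes responded alike. The lowest p, 0.00794 (exact), was reached by htp-1 against him-3, whose log2 ratio was -0.40 in chd-7;daf-2 and 0.25 in daf-2, a difference of -0.65 ± 0.13. Without chd-7;daf-2 replicate 4, 17 of the 45 pairs passed, 6 of them with him-8. In those 9 libraries the log2 ratio of htp-1 to him-8 differed by -2.02 ± 0.34 between genotypes (exact permutation, adjusted p = 0.0298), and that of msh-5 to him-8 by -0.84 ± 0.19 (exact permutation, adjusted p = 0.0420). The axis and cohesin genes htp-3 and rec-8 also differed from syp-1 and msh-5 in these libraries, by -0.96 to -1.12 on the log2 scale (exact permutation, adjusted p = 0.0298 for each of the 4 pairs). The test over pairs therefore rests on whether replicate 4 is included.

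Levels can be compared between genes only per length, here as CPM per kilobase of exon (Ensembl, WBcel235). In chd-7;daf-2, syp-2 was highest at 9.96 ± 2.99 CPM per kilobase and him-8 followed at 6.67 ± 0.86. Both steps, the one below syp-2 and the one below him-8, exceeded the larger SD of the neighbouring genes. The other 8 genes lay between 3.50 (him-3) and 1.09 (msh-5) CPM per kilobase, and no neighbours in that order differed by more than the larger SD. In daf-2, syp-2 was again highest at 13.4 ± 7.28 CPM per kilobase, ahead of htp-1 (9.42 ± 4.40), him-3 (8.31 ± 3.90), him-8 (8.18 ± 0.95) and syp-3 (8.03 ± 4.23). Then came spo-11, htp-3, rec-8, syp-1 and, lowest, msh-5 at 2.17 ± 0.48. Among neighbours in daf-2, only rec-8 (4.74 ± 1.36) exceeded the next gene, syp-1 (3.11 ± 1.195), by more than the larger SD. The median over 11518 tested genes of known exonic length was 13.2 CPM per kilobase in chd-7;daf-2 and 13.3 in daf-2, so all 10 genes were below the median in chd-7;daf-2, and in daf-2 only syp-2 reached it.

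Spread between libraries also differed among the genes. A chi-square of the read counts within a genotype, divided by its degrees of freedom, is near 1 where libraries differ by counting error alone. For him-8 it was 1.64 in chd-7;daf-2 and 1.68 in daf-2, the lowest of the 10 genes in both genotypes. It reached 26.3 in chd-7;daf-2 for him-3 and 49.3 in daf-2 for syp-2. After each genotype's mean was subtracted, the deviations of htp-1 followed the mean deviation of the other 9 genes with a Pearson correlation of 0.96 over the 10 libraries, him-3 with 0.95 and syp-3 with 0.87. The values were lowest for syp-2 (0.52) and him-8 (0.50). The genes share their libraries and scaling, so these correlations are descriptions.

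Other genes of the same processes were taken from 5 lists by role, and 34 of their 63 tested members fell, none rose. Beside this count and the counts by list below, 18.3% of all tested genes were called lower. At an unadjusted p under 0.05, 42 of the 63 were lower and 1 was higher, the nuclease gene mus-81 (log2 fold change 0.35 ± 0.15, adjusted p = 0.0845). The shares of all tested genes at that looser threshold are again larger and not given. DESeq2 called 35 of the 63 lower and none higher, where 19.7% of all genes were called lower. The median log2 fold change of the 63 was -0.57. Without the 3 libraries 36 of the 63 were lower, against 13.6% of all tested genes.

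Among the other axis and cohesin genes 7 of 9 fell. The gene lab-1, which encodes a protein that protects cohesion on the long arm of meiotic chromosomes, averaged 1.13 ± 0.99 CPM in chd-7;daf-2 dauers and 7.87 ± 4.63 CPM in daf-2 dauers. Its difference of -2.84 on the log2 scale had an adjusted p of 0.00450. The meiotic kleisin genes coh-3 and coh-4, close paralogs with the same uncertainty, had log2 fold changes of -1.37 and -0.88 (adjusted p = 0.0110 and 0.0106). The cohesin loader gene mau-2 fell by 0.57 on the log2 scale. The cohesin ring genes him-1 (SMC-1) and smc-3, which are also used in mitosis, were at -0.16 and -0.13 and did not pass (adjusted p = 0.305 and 0.365). In the list of other genes placed by role with the synaptonemal complex, 4 of 8 fell. They were syp-4 (-1.75, adjusted p = 0.0218), syp-5 (-1.26), syp-6 (-1.42) and gras-1 (-0.70).

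In the pairing list 7 of 11 fell. The genes zim-1, zim-2 and zim-3, the autosomal counterparts of him-8, had log2 fold changes of -0.88, -1.07 and -0.73 (adjusted p = 0.00311, 0.0191 and 0.0173). The kinase gene chk-2, which starts pairing, fell by 1.25 on the log2 scale, while plk-2, a polo-like kinase gene, fell by 0.99. In the break-formation list 7 of 10 fell, among them him-5 (13.3 ± 2.04 CPM in chd-7;daf-2 dauers and 25.1 ± 6.39 CPM in daf-2 dauers, adjusted p = 0.00268), dsb-2 and rad-50, but the count was 3 or 4 when any of 6 libraries was left out (chd-7;daf-2 replicates 1, 2, 3 and 5, daf-2 replicates 1 and 3). In the crossover and repair list 9 of 25 fell, among them brc-1, exo-1, rad-51 and zhp-2, and the median log2 fold change was -0.35. The strand-exchange gene rad-51 had -0.56 (adjusted p = 0.0130), the MSH-4 gene him-14 had -0.90 (adjusted p = 0.0459), and the crossover-site gene cosa-1 had -0.18 (adjusted p = 0.574).

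**Figure D3:**
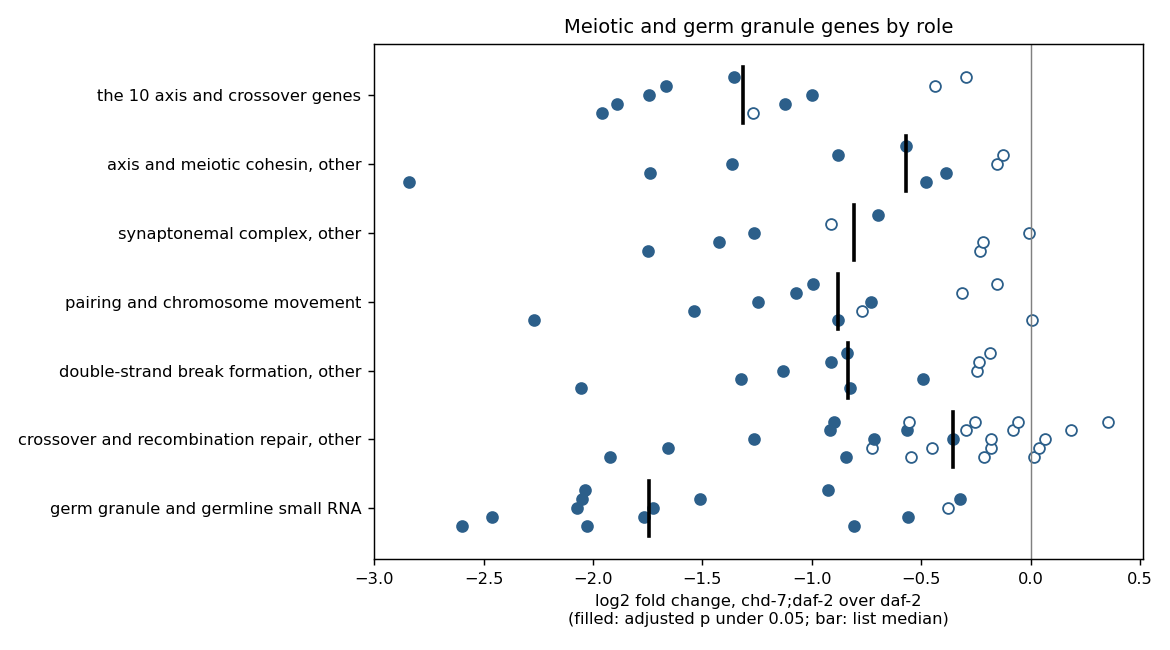
Log2 fold change, chd-7;daf-2 over daf-2, of each tested gene in the list of 10 and in 6 further lists, with filled points for an adjusted p under 0.05 and a bar for the list median. Filled points lie below 0 in all 7 lists, and the crossover and repair list has the median nearest to 0 (-0.35).

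Markers of other germline states moved in the same libraries, and their part in these results was not tested. Beside the counts here, 18.3% of all tested genes were called lower. In the germ granule and small RNA list 13 of 14 fell (median log2 fold change -1.75), but 7 without chd-7;daf-2 replicate 1, 8 without daf-2 replicate 3 and 8 without a filter on low counts. Among them was prg-1, which encodes a Piwi protein (log2 fold change -1.51, adjusted p = 0.000935). That list summed to 352, 297, 334, 616 and 315 CPM in chd-7;daf-2 replicates 1 to 5, against 826, 611, 1056, 613 and 681 CPM in daf-2 replicates 1 to 5. In the list of germline proliferation and stem cell genes 7 of 12 fell, including nos-1 (-2.49) and sygl-1 (-1.88), while the Notch receptor gene glp-1 was at -0.13 (adjusted p = 0.675). That count was 3 or 4 when replicate 1, 2, 3 or 5 of the double mutant or daf-2 replicate 3 was left out. Of 13 replication genes 8 fell, or 4 without replicate 1 or 2 of the double mutant, and of 8 mitotic cohesin and chromatid separation genes 4 fell, among them air-2 and scc-1.

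Oocyte and eggshell genes had a larger range than the 10 genes. Of 14 tested, 10 fell (median log2 fold change -2.74). The count ran from 2 (without chd-7;daf-2 replicate 1) to 14 (without replicate 4) with 1 library left out, and was outside 1.5 times the full count for 9 of the 10 libraries. It was 2 without a filter on low counts, 7 with library size scaling, and 14 without the 3 libraries (median -4.72). Their summed level was 68.4, 12.9, 19.9, 661 and 16.9 CPM in chd-7;daf-2 replicates 1 to 5, against 1052, 816, 1878, 624 and 799.6 CPM in daf-2 replicates 1 to 5. Replicate 4 of chd-7;daf-2 thus lay inside the daf-2 range, as it did for each of the 10 genes. Yolk and uterine genes summed to between 11.6 and 102 CPM in chd-7;daf-2 dauers and between 178 and 899 CPM in daf-2, with the highest values in daf-2 replicates 2 and 3, and 7 of 7 tested fell, or 4 when replicate 2, 3 or 5 of the double mutant or daf-2 replicate 2 or 3 was left out. The 30 sperm genes together had 8.36 to 11.1 CPM in chd-7;daf-2 dauers and 4.35 to 8.71 CPM in daf-2, and the major sperm protein genes msp-3, msp-19, msp-31, msp-55, msp-56, msp-57, msp-78 and msp-142 had no read in any library. On average, most of the sperm sum in chd-7;daf-2 dauers came from nspd-7 and spe-11. Among 8 tested somatic gonad genes 3 rose and 2 fell, the gap junction genes inx-8 (-2.77) and inx-9 (-1.20) of the gonadal sheath. The 2 lower calls are a share near the 18.3% of all tested genes called lower. The 3 higher calls became 1 or 2 with 1 library left out, 1 with library size scaling, with limma-voom and without a filter, and 0 without the 3 libraries, where 1 gene was lower. Of 12 dauer markers 2 fell, cut-1 and sip-1, a share near the 18.3% of all tested genes, and the count was 0 to 4 with 1 library left out, 4 with DESeq2 and 1 without the 3 libraries. The dauer list summed to between 4591 and 5896 CPM in chd-7;daf-2 dauers and between 5542 and 6278 CPM in daf-2 dauers. Somatic markers moved too, and their part in these results was not tested either. All 10 body wall muscle genes rose (median log2 fold change 1.39), with sums of 4953 to 6942 CPM in chd-7;daf-2 dauers and 1336 to 2732 CPM in daf-2 dauers. Of 9 tested intestine genes 2 rose and 6 fell, and of 9 tested neuron genes 2 rose and none fell. The 2 higher calls of each of these lists are a share near the 17.9% of all tested genes called higher. For neurons the higher calls were 1 or 2 with 1 library left out and 3 with DESeq2, which called 1 lower, as many as were lower at an unadjusted p under 0.05.

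**Figure D4:**
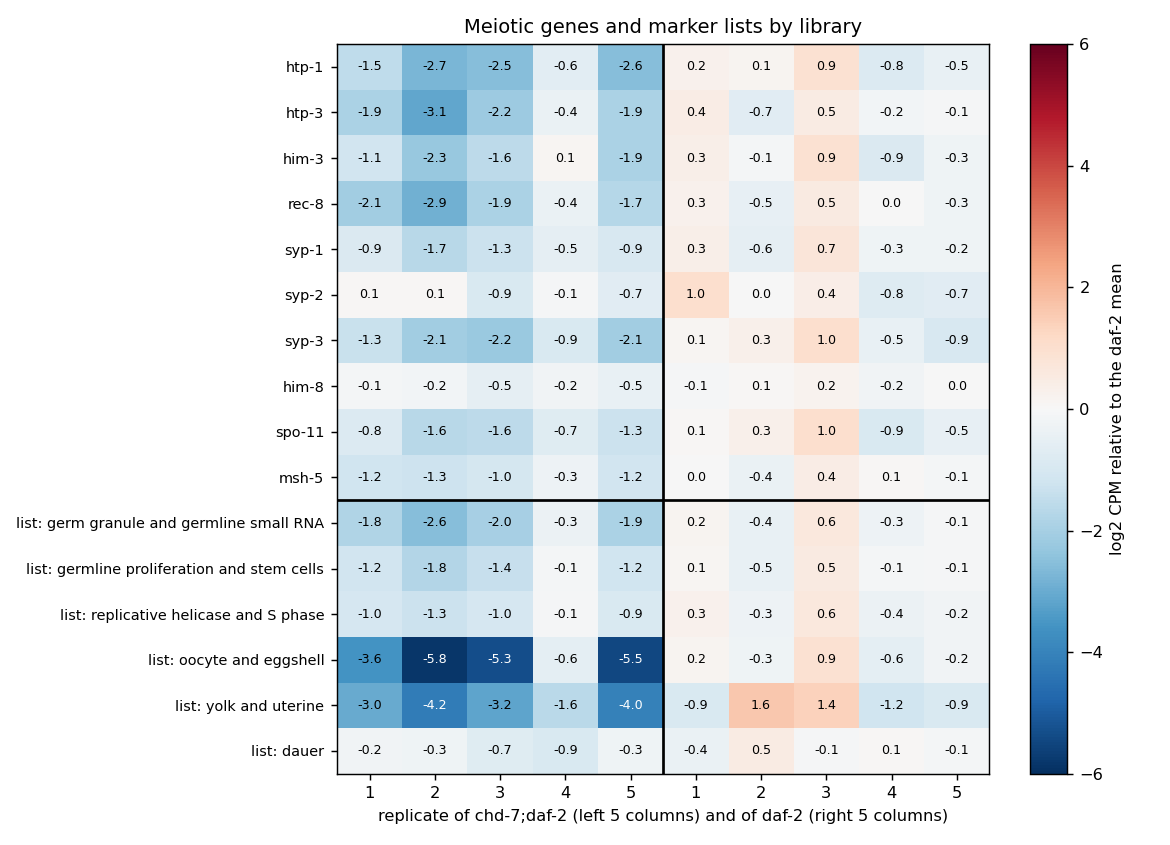
Log2 CPM relative to the daf-2 mean for the 10 genes (upper rows) and the mean of 6 marker lists (lower rows), with chd-7;daf-2 replicates 1 to 5 in the left columns and daf-2 replicates 1 to 5 in the right columns. Replicate 4 of chd-7;daf-2 is paler than its neighbours in the rows of the axis, cohesin and germline lists, and the oocyte list is at -3.57 or below in the other 4 libraries of that genotype.

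Setting the genes against the germ granule list of the same library gives their level relative to another set of germline transcripts. The list's summed CPM gives most weight to abundant genes, and car-1 and cgh-1 had its highest means in both genotypes. They had log2 fold changes of -0.56 and -0.81, against a list median of -1.75. Beside that median, htp-1 (-1.96), syp-3 (-1.89), htp-3 (-1.74) and rec-8 (-1.67) fell about as much. The rest of the 10 genes fell less. A lower or equal share of the sum therefore does not describe the level relative to most genes of the list. The 10 genes together had 10.6% to 14.7% of that list's CPM in the double mutant and 11.6% to 15.2% in daf-2 (5 libraries each). That overlap includes syp-2 and him-8, whose mean shares of the list were higher in the double mutant. The other 8 genes, a split made after their values were seen, had 8.16%, 5.35%, 6.43%, 8.97% and 7.42% in chd-7;daf-2 replicates 1 to 5, against 10.8%, 10.8%, 11.9%, 9.49% and 8.90% in daf-2 replicates 1 to 5. Their ranges met only where replicate 4 of the double mutant exceeded daf-2 replicate 5. Relative to the list, htp-1 was at 0.726% ± 0.306 in chd-7;daf-2 and 1.49% ± 0.435 in daf-2, and syp-3 at 0.525% ± 0.128 in the double mutant and 0.965% ± 0.361 in daf-2. The share of htp-3 was 0.879% ± 0.385 in chd-7;daf-2 and 1.61% ± 0.267 in daf-2, and that of rec-8 0.897% ± 0.348 in chd-7;daf-2 and 1.54% ± 0.214 in daf-2. In contrast syp-2 was at 3.01% ± 1.17 in the double mutant and 1.90% ± 0.850 in daf-2, and him-8 at 2.33% ± 0.611 in chd-7;daf-2 and 1.40% ± 0.256 in daf-2. For htp-3, rec-8 and him-8, replicate 4 of the double mutant lay inside the daf-2 range. For htp-1 and syp-3 replicates 1 and 4 did, and for syp-2 replicates 3, 4 and 5. The values of msh-5, 1.21% ± 0.0701 in chd-7;daf-2 and 1.22% ± 0.184 in daf-2, differed by less than their spread, as did those of syp-1, 1.16% ± 0.246 in chd-7;daf-2 and 1.23% ± 0.177 in daf-2. These shares are given without a test, since the list was chosen with results of these libraries known.

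**Figure D5:**
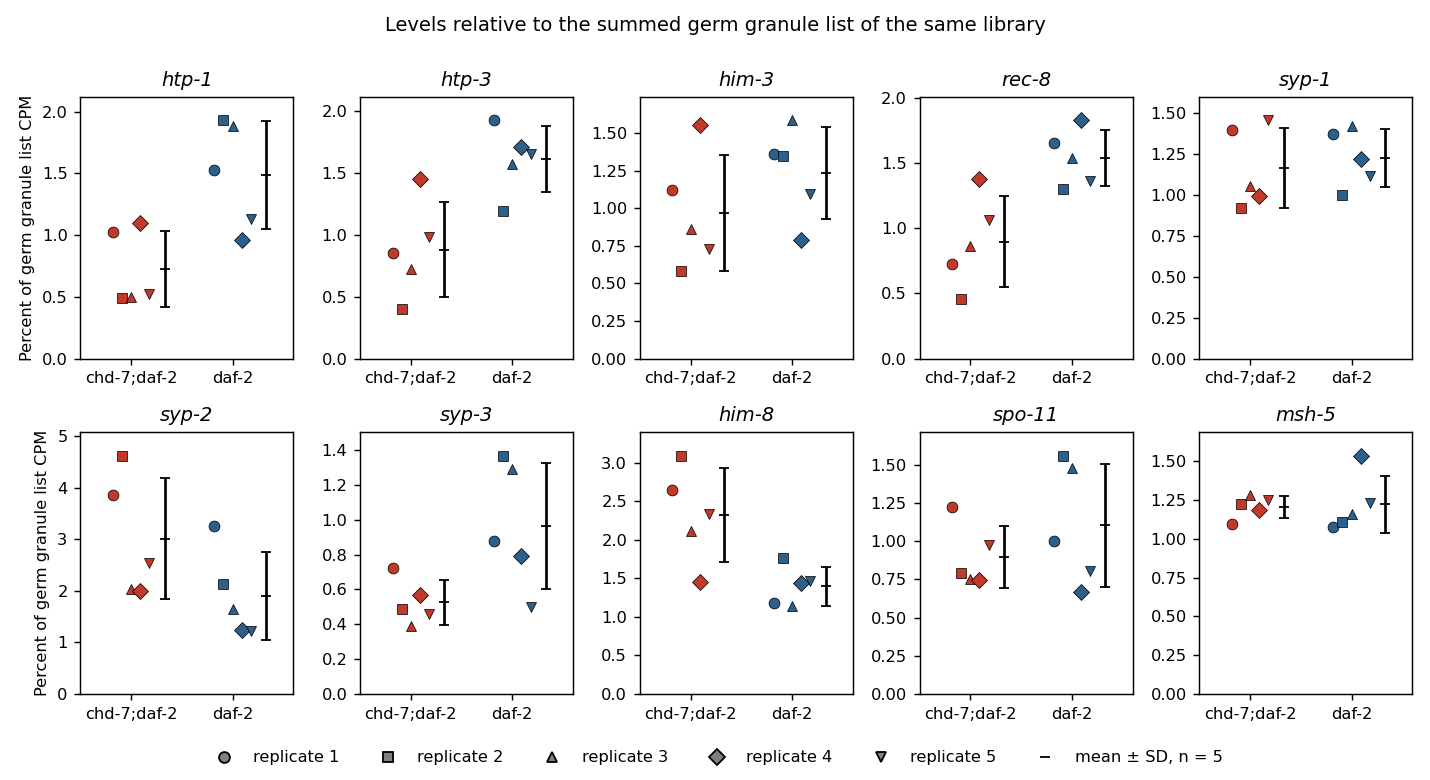
CPM of each of the 10 genes as a percent of the summed CPM of the germ granule list in the same library (y axes from 0), with chd-7;daf-2 at left, daf-2 at right, symbols for the replicate number and bars for the mean and SD of 5 libraries. The msh-5 points of both genotypes lie together, the htp-3 and rec-8 points are mostly lower in chd-7;daf-2, and the him-8 points are mostly higher there.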

How the data were processed

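Dauer RNA was sequenced in 10 libraries, 5 of chd-7;daf-2 and 5 of daf-2, made from TRIzol RNA with an NEBNext Ultra II kit per the labels' protocols. The authors deposited 1 table per library of whole-number read counts per gene, not normalised. The submitters' processing notes name HTSeq 0.9.1, STAR 2.5.4a, DESeq2 1.20.0 and FastQC 0.11.5. The sources used here give no genome build, annotation or strand setting, so reads of overlapping genes on opposite strands may not be told apart. Tallies that name no gene, 11.3% to 18.9% of reads in a library, were left out, and reads with several alignments were 5.53% to 11.2%.

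Counts were analysed with edgeR 4.0.16 in R 4.3.3. Genes passing filterByExpr (minimum count 10, minimum total 15) were scaled by TMM and tested by the robust quasi-likelihood F test with genotype as the only term, and p values were adjusted by Benjamini-Hochberg over 12499 genes. The SE is the size of the log2 fold change divided by the square root of F. The fit was tested on simulated data. All 10 genes passed the filter. For pairs of genes, log2 CPM was computed with 2 as the prior count. Alternatives were 2 other scalings, DESeq2 1.42.0, limma-voom (limma 3.58.1), 2 other filters, the replicate number as a block, each library left out, and the 3 libraries left out together.

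Positions and exonic lengths are from the Ensembl WBcel235 annotation, matched by name, and the reads may have been counted on another one. Of 233 list entries, 7 were matched through RefSeq locus tags and 4 had no row. The 10 genes and the lists were chosen with earlier results of these data known. Genes named beyond the 10 are htp-2, up to 4 called members of each meiotic or germline list with the lowest p, and members named for their role after their values were seen (coh-3, mus-81, him-1, smc-3, zim-2, zim-3, him-14, cosa-1, glp-1, inx-8, inx-9, cut-1, sip-1 and the sperm genes). The germ granule genes car-1 and cgh-1 are named for their large part in the sum of their list.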

Additional observations from a re-analysis of the deposited data

Results flagged for a closer look

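In 4 of the 20 groups of 5 libraries (10 genes in 2 genotypes), 1 library was far from the other 4 by Dixon's gap test at the 95% level, where chance flags about 1 in 20 groups if values are normally distributed. The 10 genes share their libraries and many vary together, so the 4 flags are not separate events to set against that rate. In each of the 4 groups the flagged library was chd-7;daf-2 replicate 4, the highest of its genotype. It had 8.93 CPM of htp-3 against 3.08 CPM in the next library, 9.59 CPM of him-3 against 3.95, 8.497 CPM of rec-8 against 3.34, and 7.30 CPM of msh-5 against 4.27. Oocyte, germ granule and replication transcripts were higher in the same library, and their part in these values was not tested.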

How the results depend on the processing

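The count of called genes among the 10 stayed between 7 and 8 lower and 0 higher when any 1 library was left out, and was 7 with other scalings, without a filter and with the replicate block. It was 5 of 8 with a filter of 5 CPM in 5 libraries, which syp-3 and spo-11 did not pass. No fold change of the 10 genes changed sign in any alternative. Over all tested genes, leaving out 1 library gave 1576 to 2242 lower and 1782 to 2375 higher. Among the other meiotic genes the lower calls ran from 24 to 40 and the higher calls from 0 to 1 with 1 library left out, and 20 of 43 were lower with the stricter filter. Among germ granule genes the lower calls ran from 7 (without chd-7;daf-2 replicate 1) to 13, with 8 without daf-2 replicate 3, and were 8 without a filter. The cause was not tested. The calls of him-3 and spo-11 changed as given with those genes, and mus-81 was the higher call, made without daf-2 replicate 1. The count of called pairs ran from 0 to 17 with 1 library left out, and was 17 without chd-7;daf-2 replicate 4 only. With the 3 libraries left out it was 0, with 0.0804 as the lowest adjusted p (exact permutation). With 4 chd-7;daf-2 and 3 daf-2 libraries there are few assignments, so the smallest possible p is larger than with 10 libraries. The test could then hardly pass after adjustment, and that 0 does not show that the genes responded alike. Same-numbered libraries deviated together for replicates 1, 2 and 5 (correlations 0.30, 0.33 and 0.24) and not for replicates 3 and 4 (-0.19 and -0.18). Of 5 libraries each, 2 of chd-7;daf-2 and 3 of daf-2 correlated best with their own number. Since not every pair deviated together, the numbers were not taken as pairs. The replicate block gave 7 of the 10 genes, 34 other meiotic genes and 12 germ granule genes lower, and 2269 lower and 2495 higher overall. At 13 to 316 reads per gene and library, depth limits the precision of single values.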

Other observations

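The tested genes outside all lists whose deviations from the genotype means were most like those of the 10 genes over the 10 libraries were vha-18 (Pearson correlation 0.98), chaf-2 (0.98), cdk-1 (0.98), clec-91 (0.97), H31G24.3 (0.97) and F56C9.6 (0.96). The cyclin-dependent kinase gene cdk-1, needed for mitotic and meiotic divisions, averaged 8.84 CPM in chd-7;daf-2 dauers and 22.8 CPM in daf-2 dauers (log2 fold change -1.37 ± 0.40, edgeR adjusted p = 0.0221). All 6 genes were called lower in chd-7;daf-2. They share libraries and scaling with the 10 genes.

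Of the 10 genes 6 lie on chromosome IV, which holds 15.3% of the tested genes with a known chromosome, and 18.2% of tested genes there were called lower. The htp-3 gene starts 128 kb from the end of chd-7 on chromosome I. Of 146 tested genes within 500 kb of the start of chd-7, 23.3% were called lower and 14.4% higher, against 18.3% lower and 17.9% higher among all tested genes.

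The sperm gene spe-11, named after its values were seen, was read at 0.527, 0.9997, 3.07, 2.61 and 3.601 CPM in chd-7;daf-2 replicates 1 to 5 and at 0, 0, 0, 0.0691 and 0 CPM in daf-2 replicates 1 to 5. It did not pass the filter on low counts and was not tested. Other sperm genes went both ways. On average nspd-7 was higher in chd-7;daf-2 (4.86 ± 0.81 CPM, and 2.21 ± 1.42 CPM in daf-2). Lower on average in chd-7;daf-2 than in daf-2 were spe-44 (0.369 and 1.43 CPM), msp-76 (0.0579 and 0.588 CPM) and spe-41 (0.360 and 0.557 CPM).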
